A study of Mus musculus with 23 samples.

Results

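The 38 genes described here encode the machinery that copies chromosomal DNA, from origin licensing to joining of the nascent strands, together with enzymes that supply its nucleotides. They were taken by name, and all 38 were among the 36793 genes of the count tables and passed the filter on low counts in every comparison. The study profiled mouse head and neck tumour models by RNA sequencing in 23 libraries of 8 groups. Macrophages were sorted from subcutaneous tumours as CD45-positive, CD11b-positive, Gr1-negative cells with high F4/80, each library being a pool of 3 to 4 mice. They came from SCCVII tumours in C3H/HeJ mice, HPV-positive MEER tumours in C57/Bl6 mice and HPV-negative MEER tumours in C57/Bl6 mice, with 3 libraries each, numbered 1, 2 and 4 in the last. SCCVII, which the labels also spell SSCVII and give as HPV-negative, is a squamous cell carcinoma line, and MEER is a model made from mouse tonsil epithelium. The 3 lines themselves, of the same strains, were sequenced as 3 aliquots of cultured cells each. Colonies grown for 9 days in a haematopoietic stem cell medium from macrophages sorted out of SCCVII tumours (2 libraries) and HPV-negative MEER tumours (3 libraries) form the remaining groups. Each HPV status is represented by 1 line, so the virus and other differences between the lines cannot be told apart, and SCCVII differs from MEER in both line and strain. For the lines, p-values measure the spread between aliquots, which may be technical.

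Depth was 26848759 to 47609481 counts per library. All 14 genes of a list of macrophage markers, among them Adgre1 (which encodes F4/80) and Csf1r, were above 1 CPM (counts scaled to the size of the library) in each of the 9 sorted macrophage libraries. Among the 5 colony libraries this held for HPV-negative colony 1, whereas 3 to 11 of the 14 markers were below 1 CPM in the other 4. Adgre1 was at 140.1 and 5.19 CPM in SCCVII colonies and at 1239.5, 2.84 and 0.0302 CPM in HPV-negative colonies. Krt8, an epithelial keratin, was at 91.7 and 123 CPM in SCCVII colonies and 165, 179 and 213 CPM in HPV-negative colonies, against 13.4 to 59.0 CPM in the sorted macrophages of those tumours. Cd34 was at 972 and 1113 CPM in SCCVII colonies and at 973, 983 and 955 CPM in the SCCVII line. HPV-negative colony 1 also stood apart for the replication genes, being the highest of its group for 35 of 38 against 42.7% of all genes, as aliquot 1 of the HPV-negative line was the highest of its group for 32 of 38 against 34.6% of all genes.

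Chromosomal origins are licensed before S phase, when the origin recognition complex, Cdc6 and Cdt1 load the ring-shaped MCM2-7 helicase onto DNA. At S phase Cdc45 and the GINS complex join the ring to form the active helicase, DNA polymerase alpha-primase lays down primers, and polymerases epsilon and delta extend the leading and lagging strands on the sliding clamp PCNA. Transcription of many of these genes is periodic and depends on E2F factors, which the retinoblastoma protein restrains, and an oncoprotein of high-risk papillomaviruses binds the retinoblastoma protein. Tissue macrophages can divide locally, and tumour lines in culture cycle continuously. In libraries made from whole cell populations, fewer cycling cells and less RNA of these genes per cycling cell cannot be told apart.

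Promoter windows of 250 bases before to 50 bases after the start site were on hand for 31 of the 38 genes (RefSeq, build GRCm38.p6). Motifs of the E2F type were searched on both strands as TTTGGCGC, TTTCGCGC, TTTCCCGC and TTTGCCGC. At least 1 was found for 14 of the 31 genes (45.2%), against 704 of all 27025 genes with a window (2.61%), and at least 2 for 5 of the 31 (16.1%), against 29 of all genes (0.107%). A match describes letters and is not evidence of binding. The 5 windows with most matches are shown, and were chosen by that number alone. These windows belong to 4 subunits of the MCM2-7 helicase and to Rfc3, a subunit of the clamp loader. They are chr1:128359656-128359955 for Mcm6, chr1:20820263-20820562 for Mcm3, chr8:75109259-75109558 for Mcm5, chr5:138171834-138172133 for Mcm7 and chr5:151651159-151651458 for Rfc3. All lie on the minus strand except that of Mcm5, which lies on the plus strand. Each is written 5′ to 3′ along the gene, with matches on either strand in capitals. The first and second of the 3 matches in Mcm6 (starting at -110, -106 and -47 from the start site) overlap, as do both in Mcm5 (-153 and -149).
Mcm6: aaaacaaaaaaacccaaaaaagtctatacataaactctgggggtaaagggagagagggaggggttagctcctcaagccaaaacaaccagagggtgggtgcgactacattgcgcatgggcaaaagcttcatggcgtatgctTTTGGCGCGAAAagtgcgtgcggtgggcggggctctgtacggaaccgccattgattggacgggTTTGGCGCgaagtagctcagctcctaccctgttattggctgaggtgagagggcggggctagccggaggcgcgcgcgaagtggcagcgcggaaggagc
Mcm3: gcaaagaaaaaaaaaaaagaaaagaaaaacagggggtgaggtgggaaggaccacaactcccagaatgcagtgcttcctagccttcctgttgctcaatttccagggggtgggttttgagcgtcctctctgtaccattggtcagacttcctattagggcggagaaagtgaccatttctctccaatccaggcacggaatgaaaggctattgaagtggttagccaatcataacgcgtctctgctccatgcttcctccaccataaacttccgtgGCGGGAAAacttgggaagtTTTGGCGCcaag
Mcm5: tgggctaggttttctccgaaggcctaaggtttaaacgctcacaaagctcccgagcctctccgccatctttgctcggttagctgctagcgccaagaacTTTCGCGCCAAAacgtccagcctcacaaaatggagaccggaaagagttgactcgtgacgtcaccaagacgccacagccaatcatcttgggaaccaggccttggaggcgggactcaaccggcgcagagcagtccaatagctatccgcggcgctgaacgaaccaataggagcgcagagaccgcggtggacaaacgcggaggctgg
Mcm7: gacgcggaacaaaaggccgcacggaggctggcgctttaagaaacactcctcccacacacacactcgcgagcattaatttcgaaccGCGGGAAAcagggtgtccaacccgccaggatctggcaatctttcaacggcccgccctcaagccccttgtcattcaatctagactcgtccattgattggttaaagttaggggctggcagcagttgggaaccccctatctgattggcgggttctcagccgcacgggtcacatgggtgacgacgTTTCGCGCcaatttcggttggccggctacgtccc
Rfc3: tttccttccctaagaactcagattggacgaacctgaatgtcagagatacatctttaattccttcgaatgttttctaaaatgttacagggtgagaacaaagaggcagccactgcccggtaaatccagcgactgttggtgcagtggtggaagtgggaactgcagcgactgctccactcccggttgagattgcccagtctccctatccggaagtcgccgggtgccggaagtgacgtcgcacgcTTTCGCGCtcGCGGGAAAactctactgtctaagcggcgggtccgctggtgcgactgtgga
No match was found in the windows of Tyms, Mcm2, Pcna or Rrm2, which says only that these letters are not in those windows. A further window of Mcm7 held none, and no window of Mcm4 was on hand.

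The replication genes were most abundant in the HPV-positive line. Their summed TPM (transcript abundance scaled to the library, a unit that corrects for gene length) was 5143, 4433 and 4958 in the HPV-positive line, 1656, 1639 and 1661 in the SCCVII line and 2946, 1928 and 2012 in the HPV-negative line. It was 1958, 1936 and 1945 in SCCVII macrophages, 1016, 1005 and 1065 in HPV-positive macrophages and 1541, 1485 and 1566 in HPV-negative macrophages. In colonies it was 526 and 643 from SCCVII and 1573, 761 and 741 from HPV-negative tumours. Macrophages of the 3 tumours did not overlap in this sum, and those of SCCVII lay above their own line, whereas those of HPV-positive MEER lay below theirs. The same held for CPM summed over the 38 genes. The place of HPV-negative colony 1 depended on the unit. In summed TPM, at 1573, it lay above all 3 HPV-negative macrophage libraries, and in summed CPM below them, at 1658 against 2025 to 2192. The HPV-positive line had the highest mean CPM for 35 of the 38 genes, the exceptions being Tyms (HPV-negative line), Rfc2 (HPV-positive macrophages) and Pold3 (SCCVII macrophages). SCCVII colonies had the lowest mean for 27. Pcna, the sliding clamp, had the highest mean TPM of the 38 in every group except the SCCVII line, where Mcm7 did. In that line 32.4% to 35.3% of the counts of Pcna and a pseudogene copy went to the copy, as described below. The order of Pcna and Mcm7 there is therefore uncertain. Orc1, the largest origin recognition subunit, had the lowest mean TPM in every group except SCCVII colonies, where Cdc6 did.

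**Figure D1:**
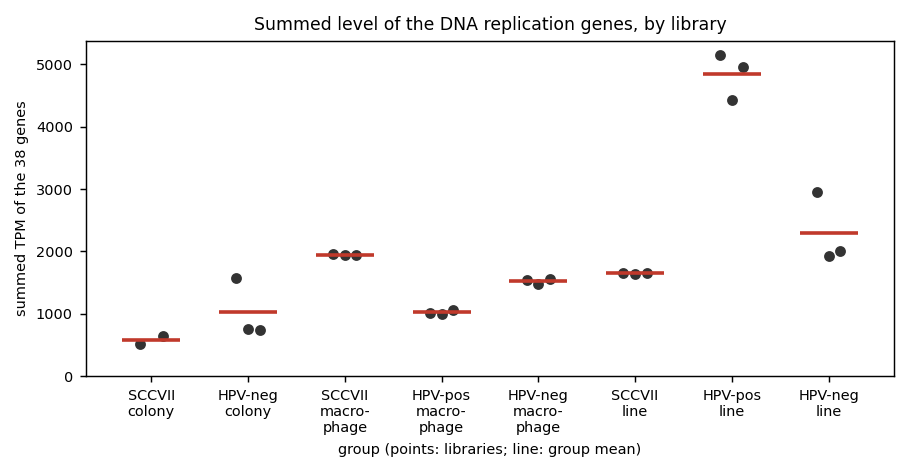
Summed TPM of the 38 replication genes (vertical axis) in each library (points) of the 8 groups, with the group mean as a line. The HPV-positive line libraries lie between 4433 and 5143, above all others, and the first HPV-negative colony library lies at 1573, apart from the other 2 of its group.

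**Figure D2:**
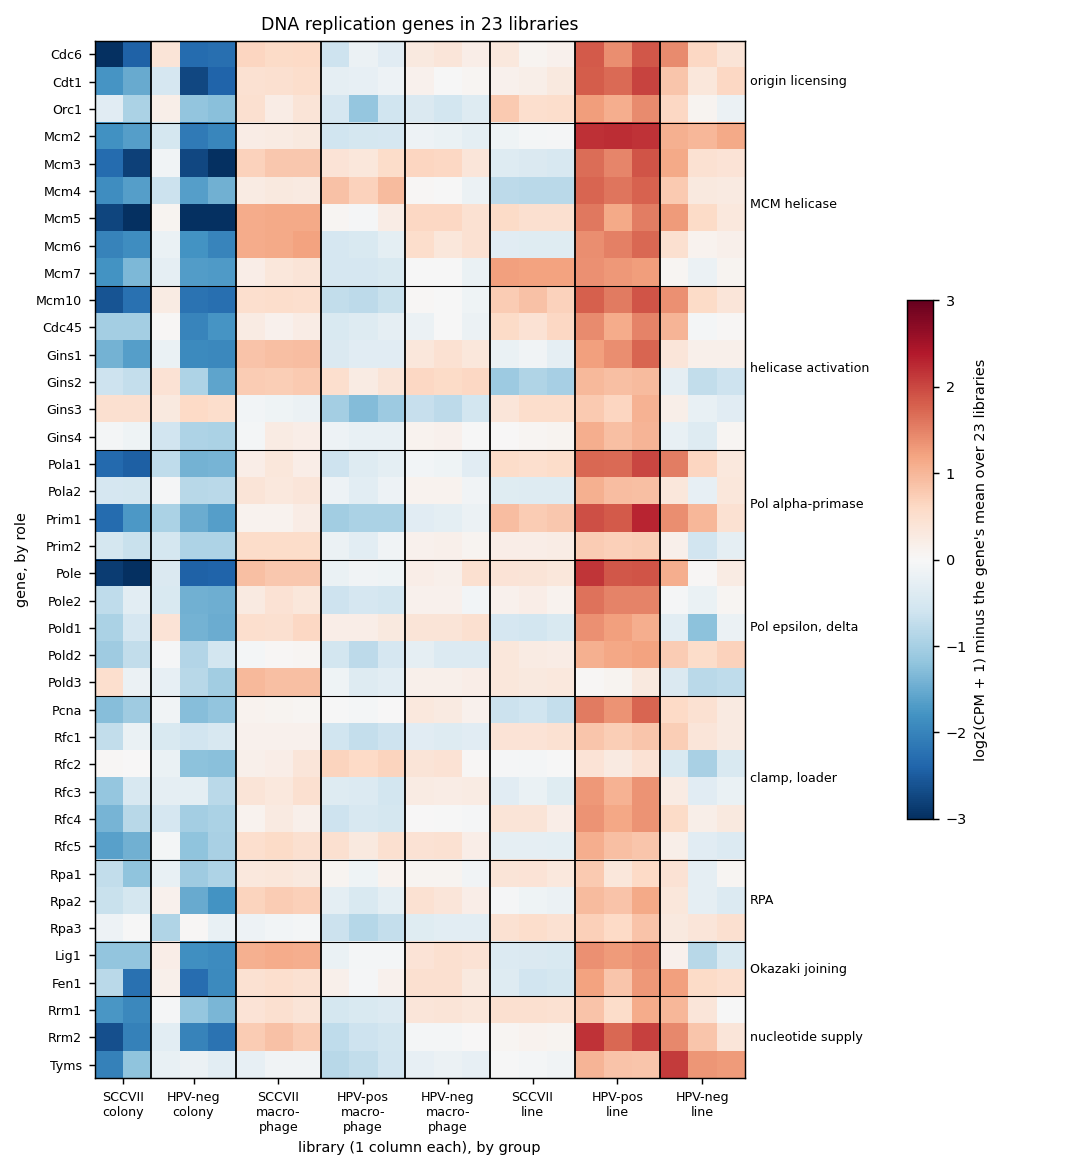
Log2(CPM + 1) of each replication gene minus its mean over the 23 libraries (colour, limited to 3 in either direction), by role (rows) and library (columns). The HPV-positive line is high for nearly all genes, Tyms is highest in the HPV-negative line, Mcm7 stands out from the other helicase genes in the SCCVII line, and most genes are low in the colonies other than HPV-negative colony 1.

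Macrophages from HPV-positive MEER tumours had less RNA of most replication genes than macrophages from HPV-negative MEER tumours. By edgeR's quasi-likelihood test with Benjamini-Hochberg adjustment over all genes, at an adjusted p under 0.05, 31 of the 38 were lower and 2 higher, where 48.7% of the 14085 genes tested were called, 22.8% higher and 25.9% lower. The median log2 change of the 38 was -0.37, against -0.05 over all genes. The calls were lower for all 6 helicase activation genes, all 5 listed subunits of polymerases epsilon and delta (Pole, Pole2, Pold1, Pold2 and Pold3), both Okazaki fragment genes and all 3 nucleotide genes. Left out 1 at a time, no single library ended 27 of the 33 calls, and Cdc45, Gins2, Gins4, Pola2, Pold1 and Pold2 (log2 changes of -0.16 to -0.26) each lost theirs without at least 1 of the libraries. In a fit over all 23 libraries, which takes in the colonies, 7 of the 38 (18.4%) were called, 6 of them lower, against 21.8% of all genes.

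Mcm6 had the largest fall. It was at 95.9, 99.6 and 111 CPM in HPV-positive macrophages and 197, 175 and 187 CPM in HPV-negative macrophages, a log2 change of -0.84 ± 0.07 (SE, n = 3 libraries each, edgeR adjusted p = 2.2e-05). Rrm1, the large subunit of ribonucleotide reductase, was at 81, 85.3 and 88.8 CPM against 153, 154 and 149 CPM (-0.81 ± 0.05), and its small subunit Rrm2 at 36.4, 40.7 and 42.6 CPM against 60.7, 60.8 and 63.9 CPM (-0.61 ± 0.07). The libraries did not overlap for any of these genes, and the 3 HPV-positive libraries were the lower ones each time. Gins1, a subunit of the GINS complex, was at 6.54, 7.11 and 7.06 CPM in HPV-positive and 11.9, 13 and 12 CPM in HPV-negative macrophages (-0.81 ± 0.08). Prim1, the catalytic primase subunit, was at 12.8, 13.8 and 13.7 CPM against 21.7, 22.3 and 24.4 CPM (-0.74 ± 0.07), and Mcm10, which helps to start the helicase, at 12.2, 11.7 and 12.7 CPM against 21.3, 20.6 and 19 CPM (-0.71 ± 0.07). The groups were again separate for each. Of the licensing genes, Cdc6 was at 8.39, 11.7 and 10.3 CPM against 16.6, 17.7 and 15.6 CPM (-0.69 ± 0.11) and Cdt1 at 46, 46.5 and 49.7 CPM against 60.3, 54.6 and 57.4 CPM (-0.25 ± 0.06), both lower. Orc1 was at 3.09, 1.6 and 2.86 CPM against 3.3, 2.99 and 3.46 CPM, groups that overlapped, and was not called (-0.35 ± 0.24, edgeR adjusted p = 0.26).

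Falls were also spread over the remaining roles, where those of Rfc3 (-0.71), Rpa2 (-0.69) and Pole2 (-0.66) were the largest. Of the helicase subunits, Mcm5 was at 82.6, 77.4 and 92.3 CPM in HPV-positive and 121, 121 and 108 CPM in HPV-negative macrophages (-0.45 ± 0.07), and Mcm2 at 65.6, 69.1 and 69.7 CPM against 89.9, 86.9 and 80.6 CPM (-0.31 ± 0.06). The activating factors Cdc45, at 13.4, 14 and 15.3 CPM against 16.2, 18.4 and 16.4 CPM (-0.23 ± 0.08), and Gins2, at 42.5, 35.3 and 38.7 CPM against 46.1, 44.5 and 45.7 CPM (-0.20 ± 0.07), fell by less. Among the polymerases, Pole was at 22.1, 23.7 and 23.3 CPM in HPV-positive and 29.2, 28.2 and 36.1 CPM in HPV-negative macrophages (-0.41 ± 0.10). Pold3 was at 35.6, 29.8 and 31.3 CPM against 43.7, 43.8 and 44.9 CPM (-0.43 ± 0.07) and Pold1 at 42.4, 42.4 and 45.2 CPM against 48.2, 48.5 and 51.4 CPM (-0.16 ± 0.06). The clamp Pcna was at 158, 153 and 161 CPM against 201, 195 and 176 CPM (-0.25 ± 0.06). In each of these genes the 3 HPV-positive libraries lay below the 3 HPV-negative ones, by a narrow margin for Gins2, Cdc45 and Pold1. Lig1, the ligase of Okazaki fragments, was at 50.4, 55.6 and 55.7 CPM in HPV-positive and 77.6, 80.6 and 78.4 CPM in HPV-negative macrophages (-0.52 ± 0.06), and Fen1, their flap nuclease, at 51.7, 45.4 and 51 CPM against 64.8, 65.4 and 57 CPM (-0.31 ± 0.07). Tyms, thymidylate synthase, was at 20.2, 21.4 and 24.1 CPM against 30.4, 32.3 and 30.7 CPM (-0.48 ± 0.08), and Rpa3, the smallest RPA subunit, at 8.06, 6.94 and 7.65 CPM against 10.1, 10.5 and 10.5 CPM (-0.43 ± 0.09). These 4 were likewise separate between the groups.

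Mcm4, another subunit of the MCM2-7 ring, went the other way. It was at 170.3, 149 and 177 CPM in HPV-positive macrophages and 94.7, 90.7 and 81.6 CPM in HPV-negative macrophages, a rise of 0.92 ± 0.08 on the log2 scale (SE, edgeR adjusted p = 1.5e-05), and the call held without any single library. The lowest HPV-positive library was above the highest HPV-negative one. Rfc2, a small subunit of the clamp loader, was at 68.8, 65 and 68.5 CPM against 56.5, 58 and 43.9 CPM and also rose (0.38 ± 0.10, edgeR adjusted p = 0.012). The other loader subunits did not share this: Rfc3 (-0.71), Rfc4 (-0.54) and Rfc1 (-0.27) fell, and Rfc5 (0.07 ± 0.08) was not called. Mcm3 (-0.09 ± 0.08), Pola1, the catalytic subunit of polymerase alpha (-0.23 ± 0.10), and Rpa1, the large subunit of the single-strand binding protein RPA (0.03 ± 0.07), were not called either. Rfc2 overlaps Lat2 on the opposite strand, and the strand setting of the counting is not given in the sources used here, so its counts are uncertain to that extent. Cdc45, Gins2, Orc1, Rfc4, Rfc5, Lig1 and Fen1 also overlap genes on the opposite strand. Pola1 and Pole overlap genes on both strands, and Cdt1 a gene on its own strand. The counts of these members are uncertain in the same way.

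Other cell markers moved with this comparison. The summed CPM of 6 dendritic cell markers was 195, 60.9 and 140.0 in HPV-positive macrophages and 15.8, 10.3 and 13.3 in HPV-negative macrophages, with no overlap. Of 11 epithelial and stromal markers, 9 overlapped between the groups, and Cdh1, at 464, 367 and 497 CPM against 66.4, 50.7 and 44.5 CPM, and Epcam, at 2.58, 1.04 and 3.41 CPM against 0.389, 0.187 and 0.537 CPM, were higher in HPV-positive macrophages. The share of all genes without overlap between these groups was not computed, so these counts do not set the markers apart. Without Cdh1 the list summed to 96.2, 88.2 and 98.9 CPM in HPV-positive and 58.4, 46.6 and 243 CPM in HPV-negative macrophages, overlapping through library 4. None of the dendritic markers was at 0 in any of these 6 libraries. The summed CPM of the 14 macrophage markers was 24139 to 26711 in HPV-positive and 27232 to 37438 in HPV-negative macrophages. The part of other cells in the replication gene differences was not tested.

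The HPV-positive line had more RNA of nearly all replication genes than the HPV-negative line. Of the 38, 35 were higher and 1 lower by edgeR, where 47% of the 14396 genes tested were called, 23.2% higher and 23.9% lower, and the median log2 change was 1.02, against -0.01 over all genes. Of the 36 calls, 30 held without any single library, and Mcm5, Cdc6, Pola1, Rfc1, Rpa1 and Rpa3 each lost theirs without aliquot 2 of the HPV-negative line, all but Pola1 also without others. Without aliquot 1 of the HPV-negative line 36 were higher and 1 lower, and the median was 1.26. Pold1, the catalytic subunit of polymerase delta, was at 96, 88 and 79 CPM in the HPV-positive line and 29.1, 15 and 32.5 CPM in the HPV-negative line, a log2 change of 1.77 ± 0.23 (SE, n = 3 aliquots each, edgeR adjusted p = 0.00018). Lig1, which seals Okazaki fragments, was at 152, 142 and 151 CPM against 63.2, 32.1 and 41.8 CPM (1.69 ± 0.20), and Pole2, a subunit of polymerase epsilon, at 34.8, 31.2 and 31.5 CPM against 10.2, 9.01 and 11.1 CPM (1.68 ± 0.13). The aliquots did not overlap for any of these genes, the lowest HPV-positive aliquot being well above the highest HPV-negative one. Pole, the catalytic subunit of that polymerase, was at 116, 94.6 and 96.7 CPM against 54.9, 26 and 30.3 CPM (1.46 ± 0.24), and Gins2 at 59.4, 56 and 58.2 CPM against 24.3, 17.2 and 18.8 CPM (1.52 ± 0.14). Mcm2 was at 460.5, 463 and 450.5 CPM against 210.2, 199 and 219 CPM (1.12 ± 0.08), with little spread in either line. Pcna was at 478, 412 and 538 CPM against 242, 219.9 and 194 CPM (1.11 ± 0.12). Aliquot 1 was the highest of the HPV-negative line for Pole, Gins2 and Pcna, and still below every HPV-positive aliquot.

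The licensing genes were higher in the HPV-positive line as well. Orc1 was at 12.8, 11.3 and 14.4 CPM in the HPV-positive and 7.87, 5.13 and 4.12 CPM in the HPV-negative line (1.16 ± 0.24), and Cdt1 at 198, 183 and 228 CPM against 99.3, 69.8 and 85.7 CPM (1.25 ± 0.13). Cdc6 was at 50.2, 36.7 and 51.8 CPM against 37.7, 21.3 and 17.8 CPM (0.84 ± 0.25), groups that overlapped through HPV-negative aliquot 1. Cdc45, at 51.6, 41.6 and 54 CPM against 38.6, 17.9 and 19.1 CPM, was higher (0.95 ± 0.26). Mcm10 was at 74.4, 63.2 and 80.3 CPM against 55.9, 31.6 and 27.4 CPM (0.91 ± 0.23), and Mcm5 at 239, 175 and 232 CPM against 194, 118 and 98.3 CPM (0.65 ± 0.22), where HPV-negative aliquot 1 overlapped the HPV-positive aliquots. Prim1 was at 109, 101 and 137 CPM in the HPV-positive and 74.1, 55.4 and 38.5 CPM in the HPV-negative line (1.03 ± 0.20), Pola1 at 131, 128 and 159 CPM against 114, 60.9 and 48.7 CPM (0.89 ± 0.25) and Pold3 at 40.5, 41.5 and 48.2 CPM against 28.7, 22 and 22.7 CPM (0.82 ± 0.12). These 3 did not overlap, although HPV-negative aliquot 1 was nearest to the HPV-positive line each time. The smallest rises that were called belonged to Rfc1, at 140.2, 132 and 141 CPM against 131, 102 and 95.1 CPM (0.32 ± 0.12), and Rpa3 at 22.3, 20.6 and 24.9 CPM against 16.5, 17.3 and 18.9 CPM (0.35 ± 0.12). The call of Rfc1 was lost without any one of HPV-positive aliquots 1, 2 and 3 or HPV-negative aliquots 2 and 3, with adjusted p of up to 0.14.

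A nucleotide enzyme, Tyms, went the other way. It was at 75.3, 66.7 and 66.2 CPM in the HPV-positive line and 160.3, 93.1 and 90.4 CPM in the HPV-negative line, a log2 change of -0.73 ± 0.20 (SE, edgeR adjusted p = 0.011). Every HPV-positive aliquot was below every HPV-negative one. Rrm2 was at 287, 212 and 264 CPM against 171, 113 and 80.9 CPM and higher (1.05 ± 0.23). Fen1, which removes the flaps of Okazaki fragments, was at 109, 84.1 and 117 CPM against 111, 69.3 and 66 CPM and was not called (0.32 ± 0.19), nor was Rrm1 at 213, 172 and 254 CPM against 238, 152 and 116 CPM (0.33 ± 0.23). Without aliquot 1 of the HPV-negative line both were called higher, with log2 changes of 0.60 for Fen1 (edgeR adjusted p = 0.0073) and 0.66 for Rrm1 (edgeR adjusted p = 0.011).

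The difference by HPV status therefore had opposite signs in macrophages and in lines for most genes, measured in separate libraries. Of the 38 genes, 28 were lower in HPV-positive macrophages and higher in the HPV-positive line. Of all genes tested, 25.9% were lower in those macrophages and 23.2% higher in that line. The share of all genes with both calls was not computed. Mcm4 and Rfc2 were higher in both, Tyms was lower in both, Rrm1 and Fen1 were lower in macrophages and not called in lines, and Orc1, Mcm3, Pola1, Rfc5 and Rpa1 were not called in macrophages and higher in lines. In 1 fit over the 18 macrophage and line libraries, the change in macrophages minus that in lines was below 0 for 35 of 38 by edgeR, where 41% of 15835 genes were called, 19.4% above 0 and 21.6% below, and its median was -1.43, against -0.03 over all genes. Without aliquot 1 of the HPV-negative line 37 were below 0, with a median of -1.58. Of the 5 genes whose promoters are printed above, all but Mcm3 were lower in HPV-positive macrophages. All 5 were higher in the HPV-positive line, and the difference was below 0 for all 5. Mcm2, Pcna and Rrm2, whose windows held no match, were also lower in macrophages, higher in the line and below 0 in the difference. A link between motifs and these changes was not tested. The change in macrophages minus that in lines was largest for Pole2 (-2.32 ± 0.15), Lig1 (-2.20 ± 0.22) and Mcm6 (-2.13 ± 0.14). The 3 genes not called were Tyms (0.26 ± 0.23, edgeR adjusted p = 0.39), Mcm4 (-0.31 ± 0.16, edgeR adjusted p = 0.14) and Rpa1 (-0.44 ± 0.20, edgeR adjusted p = 0.089). Fen1 (-0.63 ± 0.22) lost its call without any one of 8 of the 12 libraries compared, among them aliquots 2 and 3 of the HPV-negative line.

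**Figure D3:**
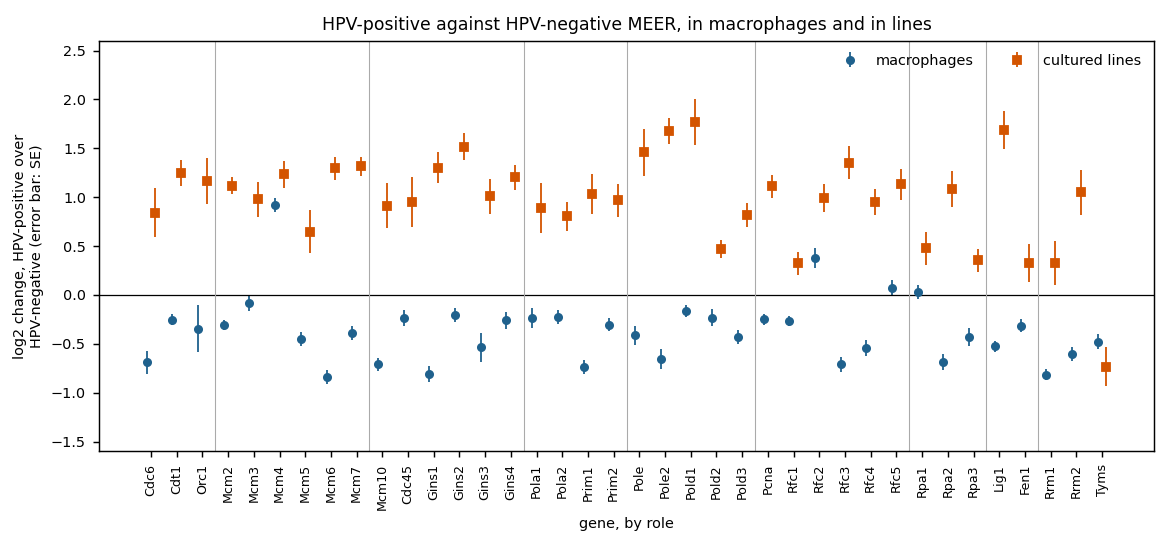
Log2 change of each replication gene, HPV-positive over HPV-negative MEER (vertical axis, error bars SE), in macrophages (circles) and cultured lines (squares), genes ordered by role. In macrophages most points lie below 0, with Mcm4 at 0.92 as the main exception, and in lines all but Tyms at -0.73 lie above 0.

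Macrophages from SCCVII tumours had more RNA of most replication genes than those from HPV-negative MEER tumours, by small amounts. By edgeR 25 of 38 were higher and 1 lower, where 39.2% of genes were called, 18.7% higher and 20.5% lower, with a median log2 change of 0.34, against -0.02 over all genes. In the fit over all 23 libraries 4 (10.5%) were called, all higher, against 17.3% of all genes, and in the macrophage fit 22 of the 26 calls held without any single library, the exceptions being Cdc6, Pole2, Rpa1 and Pcna. The largest rise was that of Orc1, at 7.16, 5.72 and 6.62 CPM in SCCVII macrophages and 3.3, 2.99 and 3.46 CPM in HPV-negative macrophages (0.98 ± 0.24, SE, edgeR adjusted p = 0.0092). Rrm2 was at 107, 116 and 108 CPM against 60.7, 60.8 and 63.9 CPM (0.82 ± 0.07), and Pold3, an accessory subunit of polymerase delta, at 78.2, 74.6 and 73.7 CPM against 43.7, 43.8 and 44.9 CPM (0.76 ± 0.07). Every SCCVII library lay above every HPV-negative one for these genes. Mcm6 was at 295, 302 and 319 CPM against 197, 175 and 187 CPM (0.70 ± 0.07) and Lig1 at 121, 127 and 123 CPM against 77.6, 80.6 and 78.4 CPM (0.63 ± 0.06), and here too the groups were separate. Other licensing and helicase genes rose by less. Cdc6 was at 21.6, 20.4 and 20.9 CPM in SCCVII and 16.6, 17.7 and 15.6 CPM in HPV-negative macrophages (0.32 ± 0.11), and Cdt1 at 76.4, 78 and 80.7 CPM against 60.3, 54.6 and 57.4 CPM (0.43 ± 0.06). Mcm2 was at 116, 118 and 121 CPM against 89.9, 86.9 and 80.6 CPM (0.45 ± 0.05), Mcm5 at 172, 176 and 174 CPM against 121, 121 and 108 CPM (0.55 ± 0.07) and Mcm10 at 30.1, 30.3 and 29.9 CPM against 21.3, 20.6 and 19 CPM (0.55 ± 0.06). Cdc45 was at 22.1, 20.6 and 21.7 CPM against 16.2, 18.4 and 16.4 CPM (0.32 ± 0.08). The groups were separate for all of these. Pola1 (0.41 ± 0.10), Prim1 (0.41 ± 0.07), Pole (0.56 ± 0.10) and Rfc1 (0.47 ± 0.05) were higher as well, whereas Gins2 (0.14 ± 0.07), Pold1 (0.10 ± 0.06) and Rpa3 (0.23 ± 0.09) were not called. Tyms at 30.4, 33.8 and 33.7 CPM against 30.4, 32.3 and 30.7 CPM (0.05 ± 0.08), Fen1 (0.04 ± 0.07), Rrm1 (0.04 ± 0.05) and Gins4 (0.04 ± 0.09) were not called. The summed CPM of the dendritic markers was 8.73, 5.12 and 8.16 in SCCVII and 15.8, 10.3 and 13.3 in HPV-negative macrophages, and that of the epithelial and stromal markers 143, 122 and 120.4 against 125, 97.3 and 288. That of 9 T and NK cell markers was 16, 6.51 and 9.79 in SCCVII and 71.6, 73 and 42.4 in HPV-negative macrophages, with no overlap. The part of these cells was not tested. Against HPV-positive macrophages, 34 were higher in SCCVII macrophages and 2 lower (Mcm4 at -0.61 and Rfc2 at -0.45), where 63.2% of genes were called, 32.2% higher and 30.9% lower, and the median was 0.73. Both comparisons share the SCCVII libraries.

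The SCCVII line differed from the HPV-negative line in both directions. Of the 38, 4 were higher and 14 lower by edgeR, where 58.8% of genes were called, 27.2% higher and 31.6% lower, and the median log2 change was -0.23, against -0.06 over all genes. Without aliquot 1 of the HPV-negative line 7 were higher and 13 lower, and the median was -0.0038. Tyms was at 36.1, 34.7 and 34.1 CPM in the SCCVII line and 160.3, 93.1 and 90.4 CPM in the HPV-negative line, the largest fall (-1.81 ± 0.20, SE, edgeR adjusted p = 3e-05). Fen1 was at 35.3, 31.1 and 32.1 CPM against 111, 69.3 and 66 CPM (-1.42 ± 0.20), and Mcm4 at 52.9, 52.5 and 52.4 CPM against 159.6, 113 and 111 CPM (-1.38 ± 0.14). In each case the SCCVII aliquots were below all 3 of the HPV-negative line. Mcm2, at 91.3, 96.2 and 96.9 CPM against 210.2, 199 and 219 CPM, was lower as well (-1.24 ± 0.08). Rrm2 was at 66.1, 68 and 66.6 CPM in the SCCVII and 171, 113 and 80.9 CPM in the HPV-negative line (-0.96 ± 0.23), Gins2 at 13.4, 15.2 and 14.2 CPM against 24.3, 17.2 and 18.8 CPM (-0.59 ± 0.14) and Cdt1 at 60.9, 63.1 and 68.3 CPM against 99.3, 69.8 and 85.7 CPM (-0.50 ± 0.13), all lower. Cdc6, at 16.9, 14.3 and 14.8 CPM against 37.7, 21.3 and 17.8 CPM (-0.83 ± 0.26), was lower too but lost its call without any one of HPV-negative aliquot 1 and SCCVII aliquots 2 and 3. Pcna, at 102, 105 and 97.4 CPM against 242, 219.9 and 194 CPM (-1.21 ± 0.12), was lower. Genes in which HPV-negative aliquot 1 lay far above aliquots 2 and 3 often gave no call. Pole was at 33.9, 33.8 and 32.6 CPM in the SCCVII and 54.9, 26 and 30.3 CPM in the HPV-negative line (-0.24 ± 0.23), Pola1 at 57.3, 55.7 and 57.3 CPM against 114, 60.9 and 48.7 CPM (-0.49 ± 0.25) and Mcm5 at 118, 109.7 and 110.2 CPM against 194, 118 and 98.3 CPM (-0.38 ± 0.22), the SCCVII aliquots lying within the HPV-negative range for all 3. Not called either were Orc1 (0.36 ± 0.24), Cdc45 (0.04 ± 0.26), Mcm10 (-0.17 ± 0.23), Rfc1 (-0.14 ± 0.12), Prim1 (-0.26 ± 0.20), Pold1 (-0.10 ± 0.23), Rpa3 (0.01 ± 0.12) and Lig1 (-0.20 ± 0.20). Against the HPV-positive line, 34 of the 38 were lower in the SCCVII line and 0 higher, where 64% of genes were called, 30% higher and 34.1% lower, with a median of -1.32. Mcm7, Pold3, Rpa1 and Rrm1 were not called, and Gins3, Orc1 and Rpa3 lost their call without at least 1 aliquot, which for Orc1 was SCCVII aliquot 2.

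Mcm7 was the exception among the helicase genes of the SCCVII line. It was at 260.4, 258 and 256 CPM in the SCCVII line and 115, 98.3 and 117 CPM in the HPV-negative line (1.13 ± 0.10, SE, edgeR adjusted p = 4.3e-06), and all SCCVII aliquots lay above all HPV-negative ones. Against the HPV-positive line, at 288, 274 and 266 CPM, its change of -0.18 ± 0.09 was not called. The 6 MCM2-7 proteins form a ring with 1 copy of each, and in TPM Mcm7 RNA was at 3.91 ± 0.07 times the median of the 6 subunits in the SCCVII line (SD, n = 3 aliquots), against 1.10 ± 0.08 in the HPV-positive and 1.02 ± 0.09 in the HPV-negative line. In sorted macrophages the ratio was 1.08 ± 0.05 for SCCVII, 0.95 ± 0.05 for HPV-positive and 1.11 ± 0.01 for HPV-negative tumours. The cause of the higher ratio in the SCCVII line was not tested. In colonies it was 1.89 ± 0.32 for SCCVII (n = 2) and 2.02 ± 0.53 for HPV-negative tumours (n = 3). Mcm7 hosts Mir106b, Mir93 and Mir25 on its own strand and overlaps Ap4m1 and Cops6 on the opposite strand, so its counts are uncertain as those of Rfc2 are. The remaining higher genes were Pold3, at 50.2, 47.9 and 48.9 CPM against 28.7, 22 and 22.7 CPM (0.91 ± 0.12), Rfc2 (0.49 ± 0.14) and Gins3 (0.54 ± 0.18), the last of which lost its call without at least 1 aliquot.

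The place of Mcm4 and Mcm6 among the subunits differed between the macrophage groups. The ratio of Mcm4 to the median of the 6 subunits was 0.59 ± 0.01 in SCCVII, 1.36 ± 0.12 in HPV-positive and 0.65 ± 0.02 in HPV-negative macrophages (SD, n = 3 each). In HPV-positive macrophages Mcm4 was the most abundant subunit in all 3 libraries, and in SCCVII and HPV-negative macrophages it was the least abundant in all 6. Mcm6 was at 2.00 ± 0.05 times the median in SCCVII, 1.05 ± 0.05 in HPV-positive and 1.68 ± 0.13 in HPV-negative macrophages. Mcm5 was the least abundant subunit in both SCCVII colonies and in HPV-negative colonies 2 and 3, and Mcm4 in HPV-negative colony 1.

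**Figure D4:**
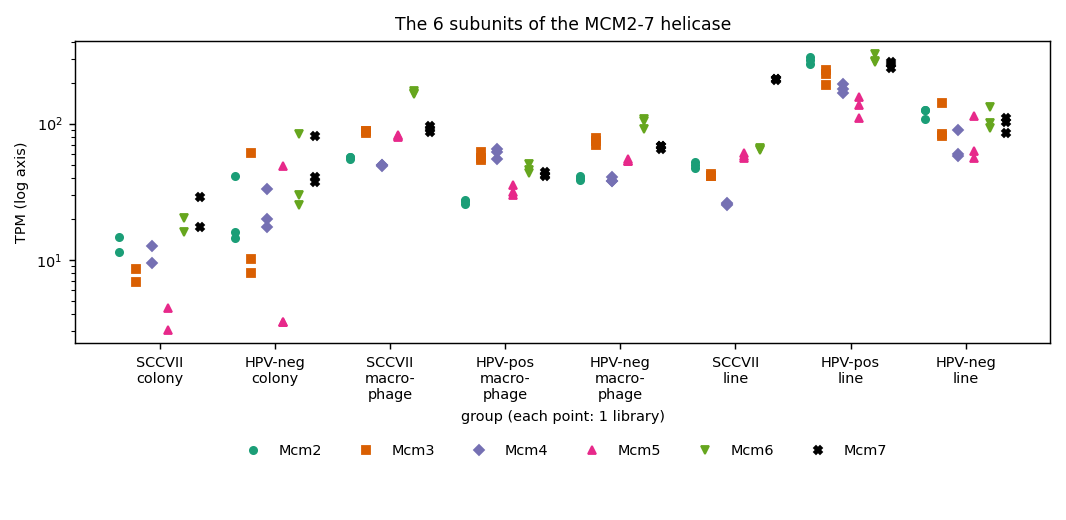
TPM (log axis) of the 6 MCM2-7 subunits in each library (points) of the 8 groups. Mcm7 (crosses) lies apart from the other 5 in the SCCVII line, Mcm4 (diamonds) is the highest subunit in HPV-positive macrophages, and Mcm5 (upward triangles) falls furthest in the colonies.

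The difference between SCCVII and HPV-negative MEER was not the same in macrophages and lines. The change in macrophages minus that in lines was called for 22 of 38, 20 above 0 and 2 below, where 43.6% of genes were called, 19.8% above 0 and 23.9% below, with a median of 0.63, against -0.07 over all genes. In the fit over all 23 libraries 9 (23.7%) were called, all above 0, against 29.1% of all genes. Tyms (1.79 ± 0.23), Rrm2 (1.71 ± 0.26) and Mcm2 (1.63 ± 0.09) had the largest positive differences, and Mcm7 (-0.82 ± 0.11) and Rfc2 (-0.63 ± 0.18) the negative ones. Without aliquot 1 of the HPV-negative line 17 were above 0 and 3 below, and the median was 0.35. Without 1 library at a time 19 calls held, those of Pola1, Pole and Prim1 being lost. The contrasts by HPV status and those with SCCVII share the HPV-negative libraries.

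For most replication genes, macrophages lay below their own line in HPV-positive MEER and above it in SCCVII. HPV-positive macrophages were lower than the HPV-positive line for 37 genes and higher for Rfc2, where 78.8% of the 15835 genes tested were called, 39.6% higher and 39.1% lower, with a median log2 change of -1.46. Prim1 was at 12.8, 13.8 and 13.7 CPM in macrophages and 109, 101 and 137 CPM in the line (-2.94 ± 0.18), the largest fall, followed by Mcm2 (-2.58 ± 0.07) and Rrm2 (-2.50 ± 0.19). SCCVII macrophages were higher than the SCCVII line for 23 genes and lower for 4, where 73% of genes were called, 37.4% higher and 35.5% lower, so that the share called was near that of the 38. Gins2 was at 51.1, 49.7 and 51.3 CPM in SCCVII macrophages and 13.4, 15.2 and 14.2 CPM in the line (1.96 ± 0.11), Lig1 at 121, 127 and 123 CPM against 43.3, 42.2 and 41.8 CPM (1.68 ± 0.16) and Mcm6 at 295, 302 and 319 CPM against 108, 107 and 107 CPM (1.65 ± 0.10), with no overlap. The 4 lower ones were Mcm7 (-0.77), Prim1 (-0.57), Gins3 (-0.52) and Rpa3 (-0.48). HPV-negative macrophages were higher than the HPV-negative line for 12 and lower for 15, where 76.1% of genes were called, 38.7% higher and 37.4% lower, and the median was -0.09. Without aliquot 1 of the line 12 were higher and 11 lower, and the median turned to 0.08. Gins2, at 46.1, 44.5 and 45.7 CPM in HPV-negative macrophages against 24.3, 17.2 and 18.8 CPM in the line, had the largest rise, followed by Pold1 at 48.2, 48.5 and 51.4 CPM against 29.1, 15 and 32.5 CPM (1.07 ± 0.19). Tyms, at 30.4, 32.3 and 30.7 CPM against 160.3, 93.1 and 90.4 CPM, had the largest fall (-1.76 ± 0.16). Leaving out 1 library at a time kept 35, 26 and 21 of the calls for HPV-positive, SCCVII and HPV-negative tumours. The fit over all 23 libraries called 16 (42.1%) for HPV-negative tumours, against 68% of all genes. Cell type and culture go together in these comparisons and cannot be told apart.

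Colonies had less RNA of most replication genes than macrophages sorted from tumours of the same model. Their cell markers differed as well. The 14 macrophage markers summed to 15861 and 1279 CPM in SCCVII colonies, against 31186 to 34427 CPM in SCCVII macrophages. In HPV-negative colonies the sum was 13868, 935 and 66.3 CPM, against 27232 to 37438 CPM in HPV-negative macrophages. Cell population and culture go together in these comparisons and cannot be told apart. In CPM, SCCVII colonies 1 and 2 each lay below all 3 SCCVII macrophage libraries for 36 of the 38 genes, and HPV-negative colonies 1, 2 and 3 below all 3 HPV-negative macrophage libraries for 29, 35 and 36. The share of all genes lying in this way was not computed, so these counts do not set the 38 genes apart. SCCVII colonies were lower than SCCVII macrophages for 28 genes and higher for 1, where 51.9% of the 16238 genes tested were called, 29.7% higher and 22.3% lower, with a median log2 change of -1.48. Without SCCVII colony 1 the number called was 17, and without SCCVII colony 2 it was 19, the lone colony library then being assumed to vary like the other groups. Pole was at 2.7 and 1.77 CPM in SCCVII colonies and 48.6, 45.3 and 45.4 CPM in SCCVII macrophages (-4.39 ± 0.77, SE, edgeR adjusted p = 0.0014). Pola1 was at 6.96 and 6.33 CPM against 44.6, 49.6 and 44.5 CPM (-2.80 ± 0.27), Prim1 at 4.73 and 7.68 CPM against 29.8, 29.9 and 32.2 CPM (-2.30 ± 0.31) and Rrm2 at 9.22 and 14.7 CPM against 107, 116 and 108 CPM (-3.20 ± 0.62). Both colonies were far below all 3 macrophage libraries for these genes, and the calls held without any single library. Cdc6 was at 0.782 and 1.68 CPM against 21.6, 20.4 and 20.9 CPM (-4.07 ± 1.06) and Mcm5 at 10.9 and 6.63 CPM against 172, 176 and 174 CPM (-4.32 ± 1.24), and both lost their call without SCCVII colony 1, Mcm5 also without SCCVII colony 2. Gins3, a GINS subunit, was the gene that was higher, at 13.7 and 13.7 CPM against 8.97, 8.6 and 8.26 CPM (0.67 ± 0.15). Gins3 was at 12.5, 14.2 and 14.1 CPM in the SCCVII line.

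HPV-negative colonies were lower than HPV-negative macrophages for 20 genes and higher for Gins3, where 62.7% of genes were called, 34% higher and 28.7% lower, with a median of -1.05. Without HPV-negative colony 1, 34 were called, 33 of them lower, whereas 10 were called without colony 2 and likewise without colony 3. Pole was at 18.5, 3.95 and 4.01 CPM in HPV-negative colonies and 29.2, 28.2 and 36.1 CPM in HPV-negative macrophages (-1.79 ± 0.57), a call that was lost without colony 2, colony 3 or macrophage library 4. Pola1 was at 22.4, 13.9 and 14.2 CPM in HPV-negative colonies and 37, 35.6 and 30.3 CPM in HPV-negative macrophages (-1.03 ± 0.21), and Prim1 at 13.8, 9.13 and 8.14 CPM against 21.7, 22.3 and 24.4 CPM (-1.14 ± 0.25). Mcm5 was at 83.1, 5.41 and 5.58 CPM against 121, 121 and 108 CPM (-1.85 ± 0.94) and was not called, colony 1 lying near the macrophages and colonies 2 and 3 far below. Tyms was at 31.3, 32.2 and 29 CPM against 30.4, 32.3 and 30.7 CPM, groups that overlapped (-0.03 ± 0.20), whereas in SCCVII it fell to 8.13 and 15.2 CPM in colonies, against 30.4, 33.8 and 33.7 CPM in macrophages (-1.49 ± 0.24). The change from macrophage to colony differed between SCCVII and HPV-negative tumours for 2 genes by edgeR, Pola1 (-1.77 ± 0.32) and Tyms (-1.46 ± 0.31), where 24.1% of genes were called, 13.5% above 0 and 10.6% below. Both calls held without any single library, but the number called was 19 without HPV-negative colony 1, 6 without HPV-negative colony 2, 7 without HPV-negative colony 3 and 4 without SCCVII colony 2. Between the colonies themselves, 2 of the 38 were higher and 4 lower in SCCVII, where 40.4% of genes were called, 20.5% higher and 19.9% lower. Without HPV-negative colony 1, 16 were higher and 5 lower, and the number called was 10 without HPV-negative colony 2, 11 without HPV-negative colony 3 and 3 without SCCVII colony 1.

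Colonies were also lower than the cultured lines. SCCVII colonies were lower than the SCCVII line for 20 genes and higher for 0, where 46.9% of the 15995 genes tested were called, 27.1% higher and 19.7% lower, with a median of -1.25. The number called was 8 without SCCVII colony 1 and 12 without SCCVII colony 2. HPV-negative colonies were lower than the HPV-negative line for 25 and higher for Gins3, where 53.2% of genes were called, 28.1% higher and 25.2% lower, with a median of -1.19. Without HPV-negative colony 1, 36 were called, against 14 or 15 without HPV-negative colonies 2 or 3 or without aliquots 1 or 3 of the line. Mcm7, which was high in the SCCVII line, was at 31.2 and 43.2 CPM in SCCVII colonies, against 260.4, 258 and 256 CPM in that line (-2.70 ± 0.45). Since the HPV-negative colonies were deposited in a table of their own, any difference in handling goes with that group and cannot be told apart from it.

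Pcna counts depended on a copy of the gene. Pcna-ps2 is a processed pseudogene that holds 23.3% of the 31-base words of Pcna, and a share of the reads was assigned to it that followed the tumour model. Of the summed counts of both, it took 32.1% to 36.4% in the 8 libraries of SCCVII origin (macrophages, line and colonies) and 0.346% to 1.03% in the 15 libraries of MEER origin. Counted alone, Pcna was at 172, 168 and 166 CPM in SCCVII macrophages and 201, 195 and 176 CPM in HPV-negative macrophages, the only one of the 38 that was lower there (-0.19 ± 0.06, SE, edgeR adjusted p = 0.027). Summed with the pseudogene it was at 253 ± 1.10 CPM in SCCVII and 192 ± 13.2 CPM in HPV-negative macrophages (SD, n = 3 each), and the log2 change turned to 0.38 ± 0.06 (edgeR adjusted p = 0.00081). Against HPV-positive macrophages the change was 0.06 ± 0.06 for Pcna alone and 0.63 ± 0.06 for the sum (edgeR adjusted p = 1.2e-05). In lines the sum kept Pcna lower in SCCVII than in HPV-negative MEER, at -0.61 ± 0.12. The reference build is that of C57BL/6J, and the part of strain in this split of reads was not tested. For the other members, no gene sharing at least 100 such words held more than 1 CPM except some that share words with Tyms. Among these were Zdhhc21, with 1.97% of the words of Tyms, and Nudcd1, with 1.60%. The effect of the shared words on Tyms counts was not tested.

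**Figure D5:**
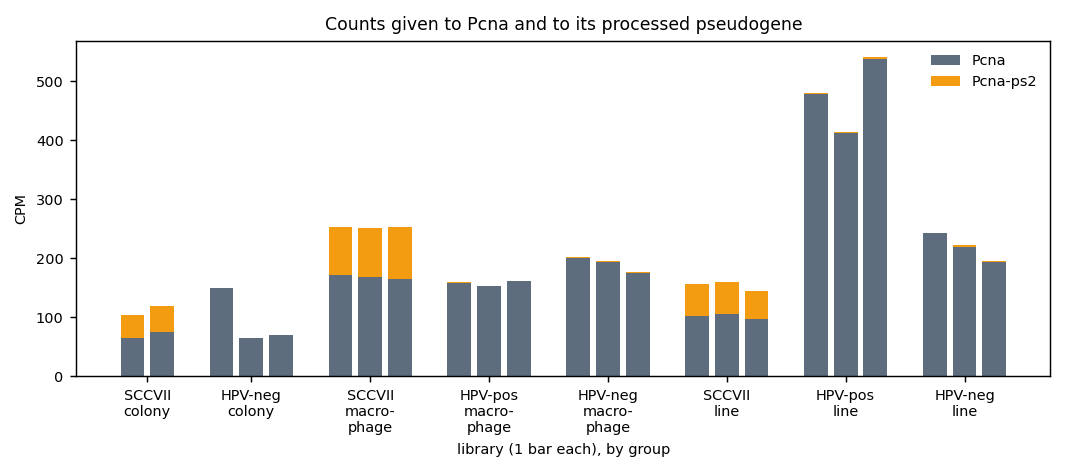
CPM counted for Pcna and, stacked on it, for its processed pseudogene Pcna-ps2 in each library (bars) of the 8 groups. The pseudogene takes about 1 in 3 counts in every SCCVII library and is barely visible in MEER libraries.

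Genes outside the 38 were followed as counts. A list of 45 further replication genes covered other origin recognition subunits, fork protection, chromatin assembly and nucleotide supply. Of these, 30 were lower and 3 higher in HPV-positive than in HPV-negative macrophages, where 25.9% of all genes were lower and 22.8% higher. Tk1, thymidine kinase, had the largest fall (-1.35 ± 0.08), and Pold4, a small subunit of polymerase delta, was among the higher (0.67 ± 0.07). In the lines 29 were higher and 2 lower in HPV-positive than in HPV-negative MEER, where 23.2% of all genes were higher and 23.9% lower. Chaf1b, a chromatin assembly factor subunit, had a log2 change of 1.85 ± 0.19. In SCCVII against HPV-negative macrophages 23 were higher and 3 lower, where 18.7% of all genes were higher and 20.5% lower. Of 22 mitotic genes, all were lower in HPV-positive than in HPV-negative macrophages, against 25.9% of all genes. Their median log2 change was -1.12, a larger shift than the -0.37 of the replication genes. In lines 20 of the 22 were higher in HPV-positive than in HPV-negative MEER, against 23.2% of all genes. The direction of the 2 lists was not alike between the SCCVII and HPV-negative lines, where 19 of the 22 mitotic genes were higher and 0 lower, with a median of 0.82, while 14 of the 38 replication genes were lower and 4 higher. Of all genes, 27.2% were higher and 31.6% lower in the SCCVII line.

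Mki67, the proliferation antigen Ki-67, and Top2a, the topoisomerase that untangles copied chromosomes, were followed in every group. Mki67 was at 126, 136 and 151 CPM in HPV-positive, 384, 400.4 and 339 CPM in SCCVII and 222, 227 and 294 CPM in HPV-negative macrophages, with no overlap between groups. In the lines it was at 278, 260.3 and 192 CPM in HPV-positive, 169, 171 and 188 CPM in SCCVII and 150.0, 58.7 and 60.3 CPM in HPV-negative MEER, aliquot 1 of the last being far above the other 2. In colonies it was at 30.1 and 14.6 CPM from SCCVII and 114, 23.4 and 20.3 CPM from HPV-negative tumours. Top2a was at 104, 107 and 133 CPM in HPV-positive, 324, 364 and 325 CPM in SCCVII and 216, 222 and 220.0 CPM in HPV-negative macrophages. It was at 451, 366 and 346 CPM in the HPV-positive, 420.1, 427 and 425 CPM in the SCCVII and 338, 166 and 167 CPM in the HPV-negative line, and at 25.8 and 30.2 CPM in SCCVII and 139.6, 50.7 and 48.6 CPM in HPV-negative colonies. Of the lines, SCCVII overlapped HPV-positive MEER for Top2a, while its Mcm2, Mcm4 and Tyms lay below.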

How the data were processed

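RNA was sequenced from 23 libraries with a TruSeq stranded mRNA kit, per the labels. The authors deposited RSEM expected counts (estimated counts, which need not be whole) and TPM per gene, per the file headers, in 2 tables, of which the second holds the HPV-negative colonies. Per the submitters' processing notes, the tools were FastQC, MultiQC, STAR (version 2.5.3a) and RSEM (version 1.3.0), and the build was mm10 (GRCm38). Which annotation release and strand setting were used is not given in the sources used here. GRCm38 is the genome of C57BL/6J, and SCCVII libraries come from C3H/HeJ. Depth was 26848759 to 47609481 counts per library. Of all values 13.1% were not whole and were rounded for the tests. RSEM divides reads among genes they fit, so genes with copies are uncertain.

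Of 36793 Ensembl identifiers 35243 (95.8%) matched a symbol in GENCODE M21. No column belonged to another sample (0). Groups came from the labels. The tests were edgeR 4.0.16 quasi-likelihood tests (R 4.3.3) on rounded counts with TMM, filterByExpr (minimum count 10, minimum total 15), prior count 0.125 and Benjamini-Hochberg adjustment at 0.05 over all genes. Fits were made over the 9 macrophage libraries, the 9 line libraries, all 18 of these, and 11 SCCVII and HPV-negative MEER libraries of colonies with macrophages, or of colonies with lines. Levels are CPM scaled by TMM over 23 libraries (17014 genes kept). TPM, as deposited and without TMM scaling, was used between genes and for the summed TPM of each library. The tests of HPV-positive against HPV-negative MEER, in macrophages and in lines, were also run on simulated counts with a fixed spread. The other comparisons, among them all those with colonies, were not simulated. Alternatives were DESeq2 1.42.0, RLE size factors, no filter, a replicate block, all 23 libraries in 1 fit, each library left out, and, chosen after seeing the data, Pcna summed with Pcna-ps2. The members, gene lists and tests were chosen with earlier results of these data known. All 38 members could be named. Values are given whatever the test for 20 members spread over the roles, where other macrophages are compared with HPV-negative macrophages and other lines with the HPV-negative line. Mki67 and Top2a are given in every group. Up to 3 called members with the largest rise and fall are given in those comparisons and in the differences between changes. They are also given for HPV-positive and SCCVII macrophages against their lines and for SCCVII colonies against macrophages. In the remaining comparisons only some members are given, chosen after their values were seen. The promoters with most matches are printed, and other genes are given as list counts with at most 2 examples. Members named outside this rule (among them Gins1, Gins3, Rrm1, Rpa1, Rpa2, the Rfc and Mcm subunits and Pole2 in some comparisons) were chosen after their values were seen.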

Additional observations from a re-analysis of the deposited data

Results flagged for a closer look

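By an edgeR interaction test, the change by HPV status (HPV-positive over HPV-negative MEER) differed between macrophages and lines for 35 of the 38 replication genes. Of all genes tested, 41% were called. Pole2 was at -2.32, Lig1 at -2.20 and Mcm6 at -2.13 (log2, macrophages minus lines). Pole2, Lig1 and Mcm6 were lower in all 3 HPV-positive macrophage libraries than in any HPV-negative one and higher in all 3 HPV-positive line aliquots. The change of SCCVII over HPV-negative MEER differed between macrophages and lines for 22 of the 38, where 43.6% of all genes were called. In the fit over all 23 libraries 9 (23.7%) were called, against 29.1% of all genes. Tyms was at 1.79, Rrm2 at 1.71, Mcm2 at 1.63, Mcm7 at -0.82 and Rfc2 at -0.63. The change from macrophage to colony differed between SCCVII and HPV-negative tumours for 2 of the 38, Pola1 at -1.77 and Tyms at -1.46. This was below the share of all genes called, 24.1%.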

How the results depend on the processing

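Counts of replication genes called in the macrophage and line comparisons stayed within 1.5 times under RLE size factors, DESeq2, no filter on low counts, the replicate block and each library left out. They did not in the fit over all 23 libraries, which called 7 for HPV-positive against HPV-negative macrophages, 4 for SCCVII against HPV-negative macrophages, 16 for HPV-negative macrophages against their line, 9 for the SCCVII to HPV-negative difference between macrophages and lines, 15 between the colonies and 14 for the colony interaction. The colony interaction counted 2 genes, against 4 with RLE and 12 with DESeq2, and the colony comparison counted 6, against 11 with DESeq2.

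Replicate numbers did not pair the samples, since in no comparison with 3 pairs did the deviations of all same-numbered libraries correlate beyond a weak level (r of -0.23 to 0.05 between HPV-positive and HPV-negative lines). The 2 pairs of SCCVII and HPV-negative colonies had r of 0.46 and 0.27, and nothing in the labels ties them together. With the replicate block 12 genes were called between HPV-negative colonies and macrophages, 2 between the colonies and 1 in the colony interaction, and the other counts stayed within 1.5 times.

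With 1 library left out at a time, the numbers called ranged from 10 to 34 for HPV-negative colonies against macrophages, 17 to 27 for SCCVII colonies against macrophages, 3 to 21 between colonies, 14 to 36 and 8 to 15 for HPV-negative and SCCVII colonies against lines, and 2 to 19 in the colony interaction. Without HPV-negative colony 1, log2 changes turned sign in SCCVII against HPV-negative colonies for Mcm2 (0.29), Mcm5 (0.63), Cdt1 (0.96), Cdc45 (0.96), Gins1 (0.55), Gins2 (0.56), Orc1 (0.86), Pola2 (0.29), Pold1 (0.75) and Lig1 (0.68), in HPV-negative colonies against the line for Gins2 (-0.75), and in the colony interaction for Cdt1 (0.52), Cdc45 (0.64), Pold1 (0.64) and Rpa2 (0.73). Pcna in SCCVII against HPV-negative macrophages turned to 0.38 when summed with Pcna-ps2, which adds the reads assigned to the copy. The cause of these changes was not tested. Orc1 and Cdc6 rest on few counts in colonies, which limits their precision.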
